A study of Mus musculus with 7 samples.

Results

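Cholesterol is made from acetyl-CoA, taken up from lipoproteins, stored as esters and handed to the steroid-producing enzymes, and 32 mouse genes that carry out or control these steps were described here in ovarian RNA. The genes were chosen by name for their known roles, with earlier results of these data already known. By role, 8 act in the mevalonate steps, 12 in the squalene and sterol steps, 5 in sterol sensing and its transcriptional control, and 7 in uptake, transport, storage and efflux. All 32 were found among the 55487 gene rows of the deposited counts, and all 32 were among the 18779 genes that passed the filter on low counts, which needs about 10 counts in as many libraries as the smaller group has.

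RNA was sequenced from the ovaries of 7 C57BL/6J (B6) females at postnatal day 60, which were in diestrus, with 1 library per animal. The 3 CNTR animals were the direct offspring of dams (F0) that had received PBS injections on days of gestation E16.5 to E18.5. The 4 PAMH F3 animals were the third generation after F0 dams injected over the same days with AMH, anti-Müllerian hormone, at 0.12 mg/kg per day. Their parents and grandparents were bred from this lineage with no further AMH. The study asked whether prenatal AMH leaves a trace in the ovary of later generations, as a mouse model of polycystic ovary syndrome. The injections are intraperitoneal in the study's methods and subcutaneous in the sample labels, and the labels do not tie animals to litters or dams. Because CNTR animals were of the first generation and PAMH F3 animals of the third, exposure and generation cannot be told apart.

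In the mevalonate pathway, acetyl-CoA units are condensed to HMG-CoA and then, through mevalonate, to isoprenoids that are joined to squalene and closed to the first sterol, lanosterol. When sterols are scarce in the endoplasmic reticulum, SCAP carries the SREBP transcription factors to the Golgi for cleavage, and they then switch on the synthesis genes, whereas INSIG proteins hold SCAP back when sterols are plentiful. Ovarian theca, granulosa and luteal cells draw on this supply for steroids, and mouse luteal cells take up much of theirs from high-density lipoprotein through the receptor SR-BI.

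The promoter bases of 6 genes that stand out in the results below are printed, though no result rests on the bases. Hmgcs1, Cyp51 and Insig1 varied together from ovary to ovary. Ebp and Npc2 were the members whose groups did not overlap, and Soat1 was the member with the largest positive difference. The sequences are RefSeq promoters of GRCm38.p6 (mm10), each written 5′ to 3′ on the gene's strand and limited to the bases nearest the start that no annotated exon covers. Capitals mark TCACNCCAC, a form of the sterol response element that SREBPs bind, and the NF-Y box CCAAT, bound by the SREBP partner NF-Y. Both were searched on either strand, so ATTGG is an NF-Y box read from the other strand, and overlapping matches were kept.
Hmgcs1, chr13:119690201-119690350, plus strand: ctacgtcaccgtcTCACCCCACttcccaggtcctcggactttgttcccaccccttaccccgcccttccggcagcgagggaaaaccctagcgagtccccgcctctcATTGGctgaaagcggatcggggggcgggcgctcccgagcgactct
Cyp51, chr5:4104747-4104896, minus strand: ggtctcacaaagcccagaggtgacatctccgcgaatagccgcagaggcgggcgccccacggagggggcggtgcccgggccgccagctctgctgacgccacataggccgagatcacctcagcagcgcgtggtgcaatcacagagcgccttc
Insig1, chr5:28071213-28071362, plus strand: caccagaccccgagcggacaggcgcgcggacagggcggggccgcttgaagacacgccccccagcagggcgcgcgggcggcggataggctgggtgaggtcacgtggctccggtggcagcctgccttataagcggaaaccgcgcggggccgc
Ebp, chrX:8193513-8193662, minus strand: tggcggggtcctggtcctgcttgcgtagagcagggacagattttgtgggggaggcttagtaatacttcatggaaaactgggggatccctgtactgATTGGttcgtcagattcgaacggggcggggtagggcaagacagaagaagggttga
Npc2, chr12:84773153-84773250, minus strand: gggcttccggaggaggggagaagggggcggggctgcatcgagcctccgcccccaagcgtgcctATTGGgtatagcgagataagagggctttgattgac
Soat1, chr1:156474332-156474481, minus strand: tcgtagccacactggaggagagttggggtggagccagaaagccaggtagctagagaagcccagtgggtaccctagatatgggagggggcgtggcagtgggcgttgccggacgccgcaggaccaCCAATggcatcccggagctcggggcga

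The sterol response element in Hmgcs1, TCACCCCAC, began at position -137 from the start. Over the whole promoter window of 250 bases before to 50 bases after the start, a promoter was on hand for 26 of the 32 members, and Hmgcs1 was the only 1 of these 26 with TCACNCCAC, a share of 3.85% of genes beside 1.44% of the 27025 genes with a promoter. A CCAAT box was present in 22 of the 26, or 84.6%, beside 41.1% of all genes with a promoter, expressed or not. Of the other lipid genes listed further below, 37 had a promoter, and 23 of these, or 62.2%, held the box. The 4 members without the box were Acat2, Scap, Abca1 and Lipe. In Cyp51 and Insig1 it lies outside the printed bases, beginning at -29 and -216 from the start. These are matches of letters within 1 window, described with no test. Only these letters were searched, so a promoter without TCACNCCAC may still hold a site for SREBPs. Fdps, Fdft1, Sqle, Scarb1, Npc1 and Stard4 had no entry in the promoter table.

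The libraries held from 32158174 to 35485021 counts on genes, and HTSeq set aside between 37.7% and 40.7% of alignments as not unique. Levels are given as CPM, counts scaled to library size with edgeR's TMM factors, and between genes only as CPM per kilobase of transcript. The length used was that of each gene's longest transcript with a RefSeq NM match, and the order of genes depends on this choice. The library CNTR 2 stood apart in its dependence on base composition, with a slope of 0.298 log2 units per 10 percentage points of GC content where the other 6 lay between -0.119 and 0.0452. Markers of granulosa cells, oocytes and luteal cells were present in every library, and of the 2 theca markers Cyp17a1, the steroid 17-hydroxylase, lay between 141.2 and 428.0 CPM while Insl3, a theca cell hormone, was at or near 0 in all 7. Markers of oviduct epithelium summed to between 2502 and 6320 CPM and of adipocytes to between 199.6 and 1440 CPM. In whole ovaries, fewer cells of a type and less RNA per cell cannot be told apart.

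The 5 members with the highest levels came from both synthesis and transport. Scarb1, which encodes SR-BI, stood highest at 202 CPM per kilobase as a mean over the 7 libraries. Msmo1, the sterol C4-methyl oxidase, followed at 118, Hmgcs1, the cytosolic HMG-CoA synthase, at 105, Soat1, which esterifies cholesterol for storage, at 94.5, and Npc2, a lysosomal cholesterol carrier, at 89.6 CPM per kilobase. Msmo1, Hmgcs1, Soat1 and Npc2 overlapped one another in their ranges over libraries. Apart from Idi1, at 0.702 CPM per kilobase, the remaining 26 members lay between 11.9 for Mvk and 52.6 for Scap, and 3 transport genes were near the lower end of that range, Npc1 at 17.4, Stard4 at 13.0 and Lipe at 12.6 CPM per kilobase. Idi1 (isopentenyl-diphosphate isomerase) rests on as few as 48 counts in a library, whereas no other member fell under 468 counts. Alignments that were not unique were not counted, and of the 50-base words in the transcripts 86.4% in Fdps, 45.9% in Acat2, 30.7% in Fdft1 and 30.5% in Idi1 occur in another annotated gene, so that the levels of these 4 genes are uncertain.

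**Figure D1:**
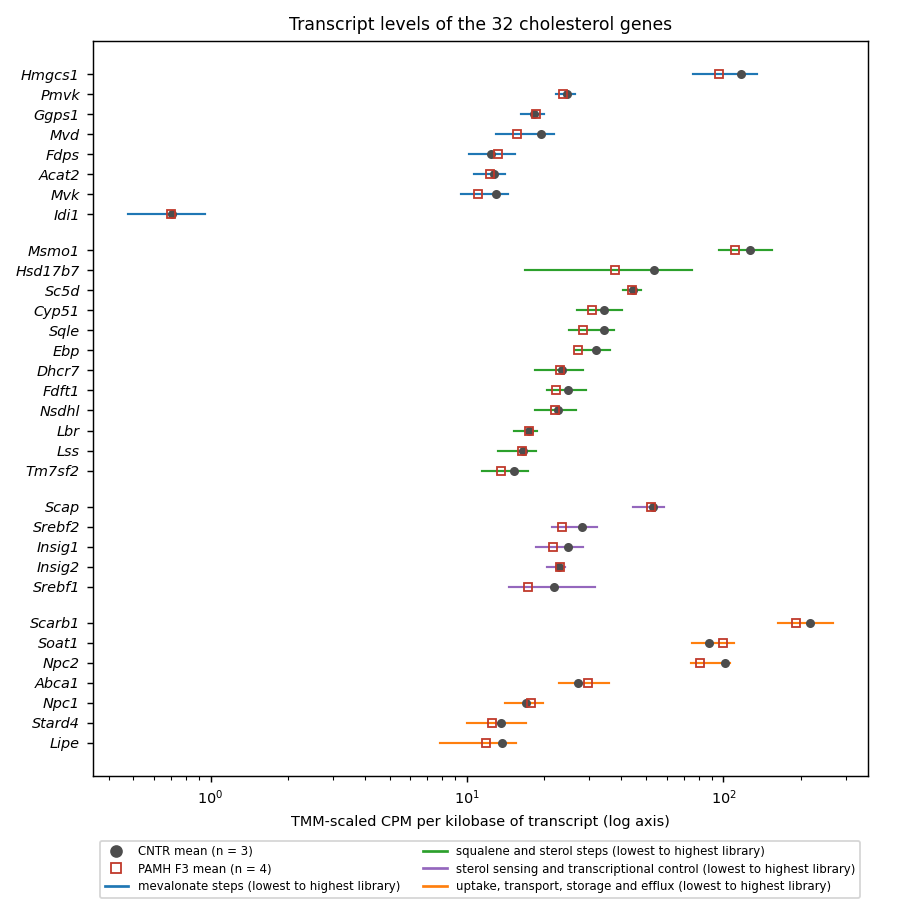
Mean TMM-scaled CPM per kilobase of transcript (log axis) of the 32 genes in CNTR (filled circles, n = 3) and PAMH F3 (open squares, n = 4), grouped by role and ordered by level, with a line from the lowest to the highest of the 7 libraries. Scarb1 stands highest at 202 and Idi1 lowest at 0.702 CPM per kilobase as means over all libraries.

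Between PAMH F3 and CNTR, no cholesterol gene passed the threshold. In edgeR's quasi-likelihood test with 2 surrogate variables (covariates estimated from the counts that stand for unwanted variation), 0 of the 32 members had an adjusted p at or under 0.05, beside 0% of all 18779 genes tested, and the adjusted p of the members ran from 0.511 to 0.998. At an unadjusted p under 0.05, 4 members stood lower in PAMH F3 (Npc2, Ebp, Hmgcs1 and Sqle), or 12.5%, beside 3.89% of all genes. In the same way 1 member stood higher (Soat1), or 3.13%, beside 3.75% of all genes. With those covariates DESeq2 also gave 0 members an adjusted p at or under 0.05, against 107 of all genes, and its lowest adjusted p among the members was that of Npc2, 0.0998.

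Most of the differences were small and on the lower side. Values below 0 were found for 25 of 32 members in log2 fold change, with a median of -0.08, beside 48.3% of all genes and a median of 0.00. Its range over the members was from -0.66 to 0.19. By mean CPM, with no covariates, PAMH F3 was lower for 26 of 32 members. Without the surrogate variables edgeR gave 3 members an unadjusted p under 0.05, all lower (Npc2, Sqle and Ebp), or 9.38% of the 32, beside 2.84% of all genes. These members vary together across libraries, as described below, so their counts are not counts of independent events. Every PAMH F3 library lay below every CNTR library for 2 members, Npc2 and Ebp (6.25%, beside 2.4% of all genes), and above for 0 members, beside 1.85% of all genes. In exact permutation tests of the CPM of single members over the 35 divisions of the libraries, the smallest p was 0.0286, the smallest possible, and after Benjamini-Hochberg adjustment over the 32 genes it was 0.807.

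**Figure D2:**
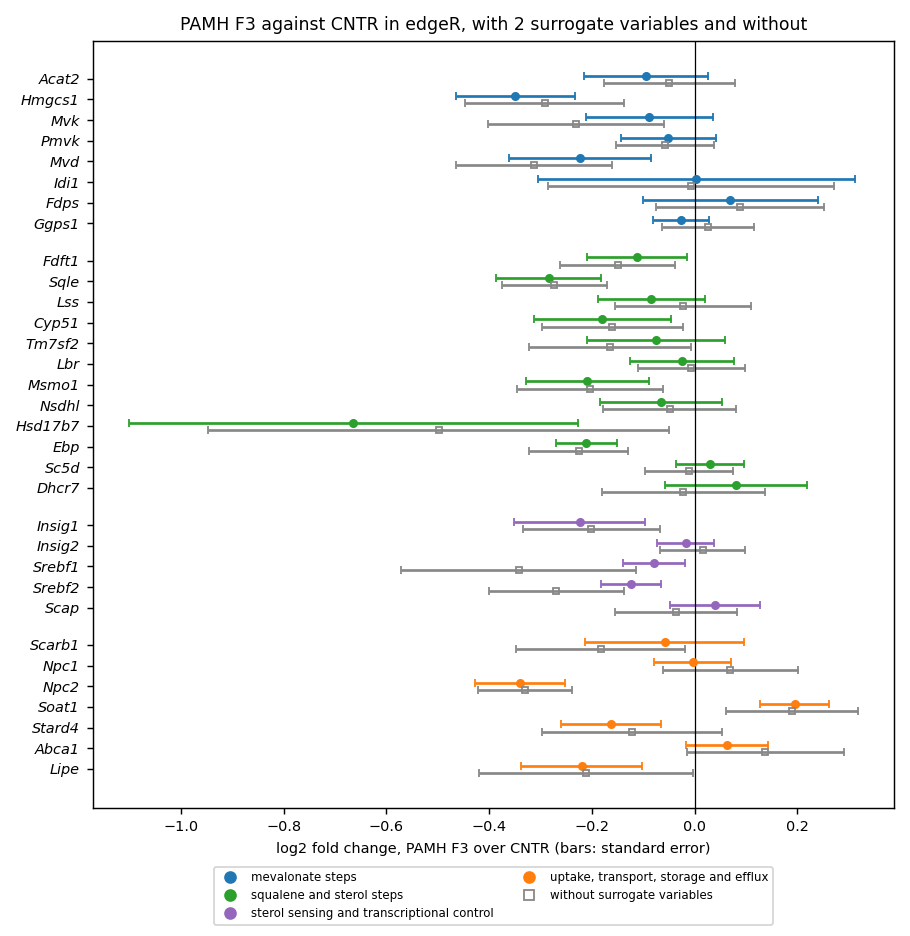
Log2 fold change of PAMH F3 over CNTR for the 32 genes, with bars of 1 standard error, from edgeR with 2 surrogate variables (filled, coloured by role) and without (open grey squares). Most points lie between -0.4 and 0.2, 25 of the 32 filled points lie below 0, and the bar of Hsd17b7 is the widest.

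In the mevalonate steps, 6 of 8 genes had a log2 fold change below 0, with a median of -0.07, and 1 of the 8 had an unadjusted p under 0.05. That gene was Hmgcs1 (chromosome 13, 119690379-119708260, mm10), which makes HMG-CoA and is a well-known SREBP target, and whose promoter with the sterol response element is printed above. It measured 431, 319.9 and 469 CPM in CNTR 1 to 3 and 359, 263, 334 and 373 CPM in PAMH F3 1 to 4. CNTR 2 was the lowest of its group and lay inside the PAMH F3 range, while CNTR 1 and CNTR 3 lay above all 4 PAMH F3 libraries. The means were 407 ± 77.6 CPM in CNTR (mean ± SD, n = 3) and 332 ± 48.8 CPM in PAMH F3 (n = 4). edgeR gave Hmgcs1 a log2 fold change of -0.35 ± 0.115 (SE), with an unadjusted p of 0.0184 and an adjusted p of 0.578. Without surrogate variables the log2 fold change was -0.29 (unadjusted p = 0.0918), and the exact permutation test gave p = 0.229.

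Mvd, the mevalonate diphosphate decarboxylase, measured 29.2, 34.7 and 38.2 CPM in CNTR and 22.8, 24.7, 34.0 and 28.1 CPM in PAMH F3. PAMH F3 3 reached into the CNTR range, and the other 3 PAMH F3 libraries lay below it. Its log2 fold change was -0.22 (adjusted p = 0.759). Mvk, mevalonate kinase, measured 16.8, 23.9 and 23.9 CPM in CNTR and 15.7, 17.4, 23.1 and 17.2 CPM in PAMH F3, with CNTR 1 below 3 of the 4 PAMH F3 libraries and a log2 fold change of -0.09 (adjusted p = 0.903). The group means differed by less than the SD of either group for Pmvk, the phosphomevalonate kinase, at 29.4 ± 1.19 against 28.2 ± 2.32 CPM, for Acat2, a cytosolic acetyl-CoA acetyltransferase, at 28.6 ± 4.09 against 27.7 ± 2.95 CPM, for Idi1 at 2.13 ± 0.720 against 2.12 ± 0.499 CPM, for Fdps, farnesyl diphosphate synthase, at 17.1 ± 2.11 against 18.2 ± 3.36 CPM, and for Ggps1, which makes geranylgeranyl diphosphate, at 77.8 ± 7.84 against 79.2 ± 4.11 CPM (CNTR against PAMH F3, mean ± SD, n = 3 and 4).

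In the squalene and sterol steps, 10 of 12 genes had a log2 fold change below 0 with the surrogate variables and 12 of 12 without them, with medians of -0.10 and -0.16. Sqle and Ebp were the 2 of 12 with an unadjusted p under 0.05. Sqle (chromosome 15, 59315077-59331192, mm10), squalene epoxidase and a rate-limiting enzyme of this branch, measured 95.5, 84.4 and 103 CPM in CNTR 1 to 3 and 78.2, 68.9, 87.4 and 78.0 CPM in PAMH F3 1 to 4. CNTR 2 lay under PAMH F3 3, and the other CNTR libraries were above every PAMH F3 library. Its means were 94.4 ± 9.52 CPM in CNTR (mean ± SD, n = 3) and 78.1 ± 7.53 CPM in PAMH F3 (n = 4). edgeR gave Sqle a log2 fold change of -0.28 ± 0.102 (SE), with an unadjusted p of 0.0264 and an adjusted p of 0.603, and without surrogate variables the log2 fold change was -0.27 (unadjusted p = 0.0248).

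Ebp (chromosome X, 8185329-8193512, mm10), the sterol isomerase that shifts the double bond of the sterol ring, measured 51.7, 51.2 and 63.1 CPM in CNTR 1 to 3 and 46.7, 46.0, 45.8 and 50.7 CPM in PAMH F3 1 to 4. The groups did not overlap, but CNTR 2 and PAMH F3 4 lay next to each other. The means were 55.3 ± 6.76 CPM in CNTR (mean ± SD, n = 3) and 47.3 ± 2.29 CPM in PAMH F3 (n = 4). edgeR gave Ebp a log2 fold change of -0.21 ± 0.0600 (SE), with an unadjusted p of 0.00928 and an adjusted p of 0.536, and without surrogate variables the log2 fold change was -0.23 (unadjusted p = 0.0443). The exact permutation test gave p = 0.0286, the smallest that 3 against 4 libraries allow.

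Hsd17b7 was the most variable of the 32 genes. Its product, also known as the prolactin receptor-associated protein of the corpus luteum, acts both as a sterol ketoreductase and on estrone. It measured 347, 232 and 161 CPM in CNTR 1 to 3 and 291, 77.7, 234 and 95.9 CPM in PAMH F3 1 to 4, a 4.47-fold span with high and low libraries in both groups, and its coefficient of variation over the 7 libraries was 48.3%. edgeR gave Hsd17b7 a log2 fold change of -0.66 ± 0.437 (SE), with an unadjusted p of 0.171 and an adjusted p of 0.774. This was the most negative value of the members, and it was not distinguished from the spread between animals. Without CNTR 1 the log2 fold change of Hsd17b7 was -0.13, and without PAMH F3 1 it was -1.01.

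Cyp51, the lanosterol demethylase, measured 139, 107 and 158 CPM in CNTR and 115, 106, 136 and 126 CPM in PAMH F3. Msmo1, which acts at a later step, measured 256, 208 and 316 CPM in CNTR and 215, 197, 242 and 249.7 CPM in PAMH F3. For both, CNTR 1 and CNTR 3 were above all 4 PAMH F3 libraries and CNTR 2 was within them, as for Hmgcs1. Their log2 fold changes were -0.18 (adjusted p = 0.80) and -0.21 (adjusted p = 0.737). Fdft1, squalene synthase, measured 91.2 ± 14.4 against 82.2 ± 6.42 CPM and Tm7sf2, a sterol reductase, 22.4 ± 2.78 against 19.9 ± 3.83 CPM (CNTR against PAMH F3, mean ± SD), with log2 fold changes of -0.11 (adjusted p = 0.825) and -0.07 (adjusted p = 0.933). In Fdft1, 774 exon bases lie on the opposite strand from Ctsb, a far more abundant gene, and in Tm7sf2, 532 exon bases are shared with Vps51 on the same strand.

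Of the remaining genes of this branch, 5 had group means that lay close together. Lss, which closes the ring to lanosterol, had means of 77.5 ± 10.3 against 76.3 ± 10.7 CPM, Lbr, a nuclear membrane protein that is also a sterol reductase, 61.3 ± 6.60 against 61.0 ± 5.29 CPM, and Nsdhl, a sterol dehydrogenase, 49.2 ± 9.02 against 47.6 ± 3.91 CPM. Sc5d, the sterol desaturase, had means of 212 ± 15.5 against 210.1 ± 14.0 CPM and Dhcr7, the final reductase of 1 branch, 66.2 ± 13.4 against 65.2 ± 9.83 CPM. In each of these 5 genes the difference was smaller than the SD of either group, and the signs of Sc5d and Dhcr7 depended on the surrogate variables (0.03 and 0.08 with them, -0.01 and -0.02 without). Sc5d was also among the steadiest, with a coefficient of variation of 6.35%.

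**Figure D3:**
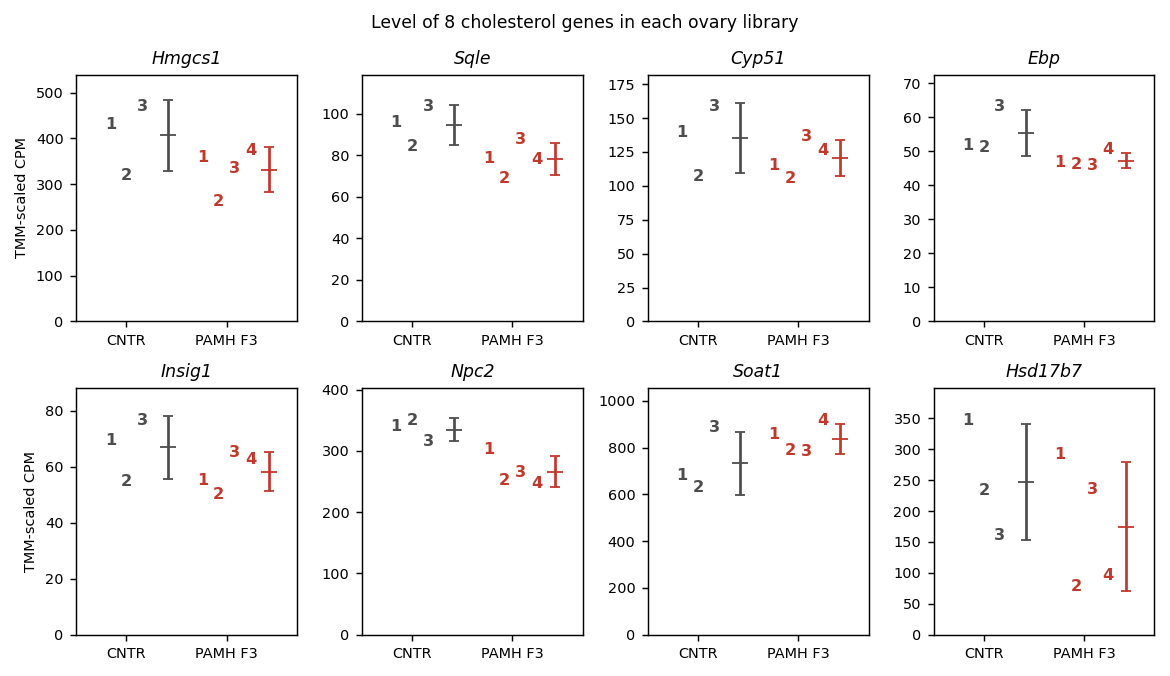
TMM-scaled CPM (linear axis from 0) of 8 cholesterol genes in each library, with each digit giving the replicate number of 1 library in CNTR (grey) or PAMH F3 (red) and bars giving mean ± SD (n = 3 and 4). CNTR 2 sits below CNTR 1 and CNTR 3 for Hmgcs1, Sqle, Cyp51 and Insig1, the groups do not overlap for Npc2 and Ebp, and Hsd17b7 spans 4.47-fold.

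None of the 5 genes of sterol sensing and control had an unadjusted p under 0.05, and 4 of the 5 had a log2 fold change below 0 (median -0.08). Insig1, which retains SCAP and is itself an SREBP target, measured 69.5, 54.5 and 76.7 CPM in CNTR 1 to 3 and 54.9, 50.1, 65.0 and 62.7 CPM in PAMH F3 1 to 4. As for Hmgcs1, CNTR 2 was within the PAMH F3 range and the other CNTR libraries were above it, and the log2 fold change was -0.22 (adjusted p = 0.733). Insig2, its relative, was the steadiest of the 32 genes, with a coefficient of variation of 5.5% and means of 61.5 ± 5.41 against 62.1 ± 1.83 CPM.

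The genes for the factors themselves followed other libraries. Srebf2, which encodes the main activator of cholesterol synthesis, measured 109, 163 and 156 CPM in CNTR 1 to 3 and 114, 113, 127 and 120.4 CPM in PAMH F3 1 to 4, with CNTR 2 and CNTR 3 above every PAMH F3 library and CNTR 1 below all 4. Its log2 fold change was -0.12 (adjusted p = 0.684), and -0.27 (unadjusted p = 0.0710) without surrogate variables. Srebf1, which encodes the factors more tied to fatty acid synthesis, measured 65.0, 136 and 81.8 CPM in CNTR 1 to 3 and 68.0, 78.9, 88.2 and 62.4 CPM in PAMH F3 1 to 4. CNTR 2, the library with the GC slope that stood apart, was the highest for both genes, and its part in the Srebf1 and Srebf2 values was not tested. For Srebf1 the log2 fold change was -0.08 (adjusted p = 0.804) with surrogate variables, -0.34 without them and 0.04 when CNTR 2 was left out. Without CNTR 1, on the other hand, Srebf1 had a log2 fold change of -0.50 ± 0.0547 (SE) and an adjusted p of 0.0487 by edgeR, the only adjusted p at or under 0.05 of any member under any alternative run. In that fit 39 of all 19094 genes tested passed the threshold. Without CNTR 1 and without surrogate variables, 0 of all genes did. Scap, the escort protein, had means of 225 ± 33.1 against 219.9 ± 21.1 CPM (CNTR against PAMH F3, mean ± SD).

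In uptake, transport, storage and efflux, 1 of 7 genes was lower and 1 higher at an unadjusted p under 0.05. Npc2 (chromosome 12, 84754562-84773152, mm10), which passes cholesterol from degraded lipoproteins to NPC1 in the lysosome, measured 339, 350.4 and 315 CPM in CNTR 1 to 3 and 303, 252, 264 and 247 CPM in PAMH F3 1 to 4. All 4 PAMH F3 libraries lay below all 3 CNTR libraries, with PAMH F3 1 nearest. The means were 335 ± 18.2 CPM in CNTR (mean ± SD, n = 3) and 266 ± 25.2 CPM in PAMH F3 (n = 4), a difference of the means of -20.5%. edgeR gave Npc2 a log2 fold change of -0.34 ± 0.0882 (SE), with an unadjusted p of 0.00583 and an adjusted p of 0.511, and without surrogate variables the log2 fold change was -0.33 (unadjusted p = 0.00572). The exact permutation test gave p = 0.0571. The unadjusted p of Npc2 stayed under 0.05 in 26 of 26 alternatives run, with the adjusted p between 0.0701 and 1.00 across them. Npc1, the membrane partner of NPC2, had means of 88.6 ± 10.1 against 93.0 ± 13.9 CPM and a log2 fold change of -0.00.

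Soat1 (chromosome 1, 156424525-156474331, mm10), the enzyme that turns cholesterol into esters for lipid droplets, measured 682, 629 and 887 CPM in CNTR 1 to 3 and 856, 787, 782 and 918 CPM in PAMH F3 1 to 4. CNTR 1 and CNTR 2 lay below all PAMH F3 libraries and CNTR 3 was higher than 3 of the 4, so that the groups overlapped. The means were 733 ± 136 CPM in CNTR (mean ± SD, n = 3) and 836 ± 64.7 CPM in PAMH F3 (n = 4). edgeR gave Soat1 a log2 fold change of 0.19 ± 0.0678 (SE), with an unadjusted p of 0.0232 and an adjusted p of 0.599. Without surrogate variables it was 0.19 (unadjusted p = 0.172).

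Scarb1, the most abundant member per kilobase, measured 421, 672 and 547 CPM in CNTR 1 to 3 and 576, 411, 458 and 482 CPM in PAMH F3 1 to 4. PAMH F3 1 exceeded CNTR 1 and CNTR 3, and the log2 fold change was -0.06 (adjusted p = 0.961). Stard4, a cytosolic sterol carrier and SREBP target, measured 70.6, 50.8 and 86.9 CPM in CNTR and 64.8, 54.5, 60.6 and 75.3 CPM in PAMH F3. The groups overlapped, and edgeR put the log2 fold change at -0.16 (adjusted p = 0.746). Abca1, which exports cholesterol to apolipoproteins, had means of 277 ± 38.8 against 305 ± 54.2 CPM (CNTR against PAMH F3, mean ± SD).

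Lipe, the hormone-sensitive lipase that frees cholesterol from esters in steroidogenic cells and is abundant in fat, measured 53.8, 54.9 and 39.8 CPM in CNTR 1 to 3 and 42.8, 43.3, 56.3 and 28.4 CPM in PAMH F3 1 to 4. PAMH F3 4 was the lowest and PAMH F3 3 the highest of all 7, and the log2 fold change was -0.22 (adjusted p = 0.724). The 6 adipocyte markers, all of them detected, summed to between 418.9 and 1440 CPM in CNTR and between 199.6 and 1080 CPM in PAMH F3, with PAMH F3 4 lowest here too. Across the 7 libraries Lipe and the summed adipocyte markers had a Pearson r of 0.84 (exact permutation p = 0.0139) and a Spearman rho of 0.79 (p = 0.048), with adjusted values of 0.445 and 0.701 over the 32 relations, and r was 0.60 without CNTR 1 and PAMH F3 4.

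The 5 luteal markers, all detected, are given beside the members that stood lower. They summed to between 3240 and 5292 CPM in CNTR and between 1957 and 3439 CPM in PAMH F3, and these sums overlapped in that PAMH F3 1 exceeded CNTR 1. Sfrp4 was at 1483 to 2163 CPM in CNTR and 511 to 1446 CPM in PAMH F3, whereas Akr1c18, at 203 to 1043 against 119.7 to 558 CPM, and Lhcgr, at 415 to 523 against 308 to 502 CPM, overlapped between the groups. With this sum, Ebp had a Pearson r of 0.84 (exact permutation p = 0.00972) and a Spearman rho of 0.82 (p = 0.0341), with adjusted values of 0.311 and 0.876 over 32 relations, and r was 0.48 without CNTR 3 and PAMH F3 3. Npc2 had a Pearson r of 0.72 (exact permutation p = 0.0706) and a Spearman rho of 0.68 (p = 0.11), with adjusted values of 0.753 and 0.876, and r was 0.86 without the same 2 libraries. None of the 64 relations of members to the luteal and adipocyte sums passed the adjustment. In these relations the group means were not subtracted. Ebp and Npc2 are shown because they stood lower in PAMH F3, where the luteal sum also ran lower. The difference between the groups therefore enters their r and p values. The part of luteal or adipose tissue in the values of the members was not tested.

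**Figure D4:**
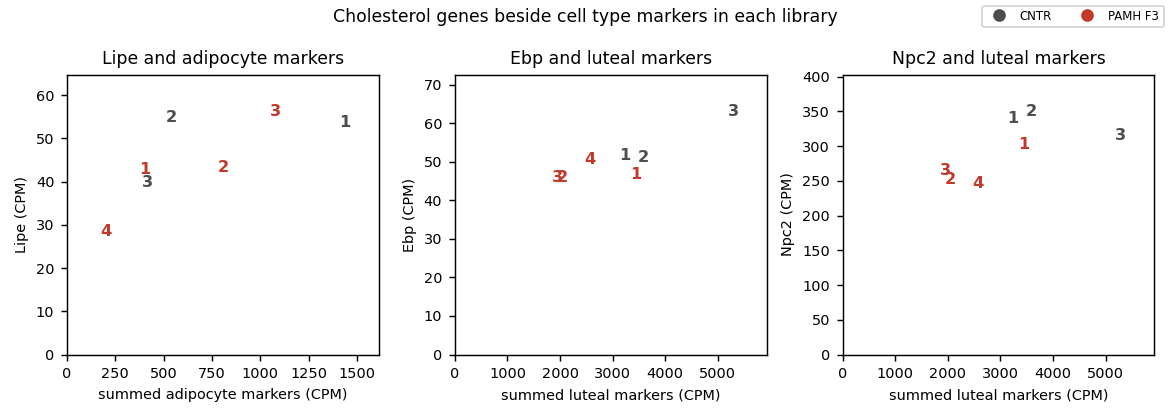
CPM of Lipe against the summed CPM of 6 adipocyte markers, and of Ebp and Npc2 against the summed CPM of 5 luteal markers, on linear axes from 0. Each digit is the replicate number of 1 library (CNTR grey, PAMH F3 red), and PAMH F3 4 is lowest on both axes for Lipe, while CNTR 3 is highest on both axes for Ebp.

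Many of the synthesis genes, but not all, varied together from ovary to ovary within the groups. After the group mean of each gene was subtracted from its log2 CPM, the median Pearson r over the 190 pairs of the 20 synthesis genes was 0.46, beside a median of -0.03 between these genes and all genes tested. Of those pairs 36, or 18.9%, had r over 0.8, beside 2.35% of pairs with all genes, and 33 of the 190 had r below 0. Sc5d did not follow the others, with a median r of -0.21 and 12 of its 19 pairs below 0, the lowest of them -0.79 with Hsd17b7. Hsd17b7, Mvk and Tm7sf2 had medians of 0.11, 0.17 and 0.20, and Mvk and Ggps1 had an r of -0.70 with each other. The median was 0.54 within the mevalonate steps and 0.43 within the squalene and sterol steps, but 0.04 within the sensing genes and -0.08 within the uptake and transport genes. With 7 libraries and 2 group means removed these are descriptions, and the pairs share libraries, depth, tissue composition and any dependence on GC content. Hmgcs1 and Ggps1 (43.1% and 40.1% GC) were lowest within CNTR in CNTR 2, whose GC slope stood apart. Mvk (56.3%) was highest there by a small margin. Idi1, Lbr, Msmo1, Nsdhl, Insig2, Npc1, Soat1 and Stard4 (41.9% to 46.0%) were also lowest there. Lipe, Srebf2 and Srebf1 (55.6% to 58.4%) were highest there. Pmvk (56.95%, lowest) and Sc5d (42.9%, highest) went the other way. Hsd17b7 (43.9%), Mvd (59.0%) and Scap (59.1%) were neither lowest nor highest in CNTR 2. The part of GC content in these correlations was not tested. Over all members the median r was 0.29, and between 0.19 and 0.35 with each library left out.

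The pattern can be read from single libraries. CNTR 2 was the lowest of its group for 14 of the 20 synthesis genes and CNTR 3 the highest for 14. Over all 32 members these counts were 20 and 21, and they were not made over all genes. In PAMH F3, library 2 was the lowest for 12 of the 20 and library 3 the highest for 12. Over all 32 members these counts were 17 and 16. Insig1 and Stard4, which act outside synthesis, were also lowest in CNTR 2 and highest in CNTR 3 within CNTR. Both were lowest in PAMH F3 2 within PAMH F3. Insig2, Npc1, Abca1 and Soat1 had the same lowest and highest CNTR libraries, but were lowest in PAMH F3 3 within PAMH F3. Srebf1 and Scarb1, in contrast, were highest in CNTR 2.

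Hmgcs1 served as the reference for this set, and its 31 relations to the other members were computed over the 7 libraries. Unlike the r of deviations above, these used log2 CPM with the group means not subtracted. The difference between the groups therefore enters them. Insig1 had a Pearson r of 0.90 with Hmgcs1 (exact permutation p = 0.00714) and a Spearman rho of 0.89 (p = 0.0123). Msmo1 had r = 0.90 (exact permutation p = 0.00814) and rho = 0.96 (p = 0.00278). Stard4 had r = 0.87 (exact permutation p = 0.0131) and rho = 0.93 (p = 0.00675). Cyp51 had r = 0.86 (exact permutation p = 0.0143) and rho = 0.89 (p = 0.0123). Sqle had r = 0.86 (exact permutation p = 0.0167) and rho = 0.68 (p = 0.11), and Lss had r = 0.84 (exact permutation p = 0.0145) and rho = 0.79 (p = 0.048). None passed the adjustment over 31 relations, where the smallest adjusted p was 0.0861 for both measures. Without CNTR 3 and PAMH F3 2, the libraries farthest from the median of Hmgcs1, r was 0.78 for Stard4, 0.71 for Msmo1, 0.69 for Lss, 0.68 for Insig1, 0.62 for Cyp51 and 0.44 for Sqle, so that these relations rest in part on those libraries.

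**Figure D5:**
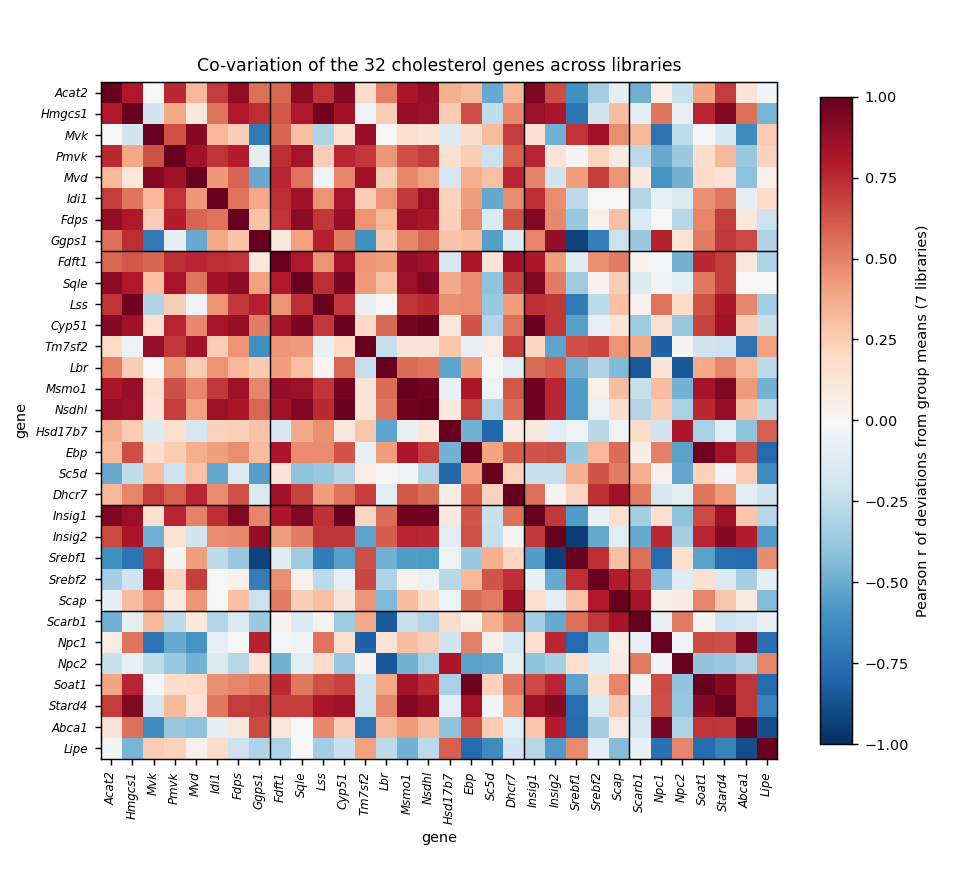
Pearson r between the deviations of each pair of the 32 genes from their group means in log2 CPM over 7 libraries (red positive, blue negative), ordered by role with black lines between the roles. The synthesis block at the upper left is mostly red, with a median r of 0.46, and Insig1 and Stard4 form red stripes against it, while Srebf1 and Lipe hold many blue cells.

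The number of members that stood apart depended on single libraries. With CNTR 2 left out, 7 members had groups that did not overlap, all lower in PAMH F3 (Hmgcs1, Sqle, Cyp51, Msmo1, Ebp, Insig1 and Npc2), or 21.9%, beside 5.14% of all genes. In the same 6 libraries 8 members, all lower, had an unadjusted p under 0.05 by edgeR, beside 3.62% of all genes. With CNTR 1 left out the groups did not overlap for 6 members, all lower (Ebp, Npc2, Mvk, Mvd, Srebf2 and Scap), or 18.8%, beside 8.76% of all genes. With PAMH F3 3 left out they did not overlap for 6, all lower (Ebp, Npc2, Sqle, Pmvk, Mvd and Tm7sf2), beside 4.93% of all genes. In that set 13 members had an unadjusted p under 0.05, all lower, beside 3.11% of all genes, and the median log2 fold change over the members was -0.19. Without surrogate variables this count was 5, beside 3.26% of all genes. With CNTR 3 left out, 1 member was lower at that level (Npc2), beside 4.55% of all genes, and 1 higher (Soat1), beside 4.16%, and the median was -0.03. With PAMH F3 2 left out, 3 members were lower, beside 1.98% of all genes. Ebp and Npc2 did not overlap in any of the 7 sets of 6 libraries. This adds nothing, because groups that do not overlap in all 7 libraries cannot overlap in fewer.

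Of 51 other genes of cholesterol and related lipid metabolism, listed by role and all tested, 0 had an adjusted p at or under 0.05 and 8 had an unadjusted p under 0.05, 6 of them lower in PAMH F3 (11.8%, beside 3.89% of all genes) and 2 higher (3.92%, beside 3.75%). For 29 of the 51 the log2 fold change was below 0, with a median of -0.02. Groups did not overlap for 4 genes lower in PAMH F3 (7.84%, beside 2.4% of all genes) and 2 higher (3.92%, beside 1.85%). In the first steps from cholesterol to steroids, 2 of 6 genes were lower at that level. Tspo, an outer mitochondrial membrane protein, measured 53.8, 97.2 and 60.7 CPM in CNTR 1 to 3 and 45.1, 53.7, 55.9 and 42.05 CPM in PAMH F3 1 to 4. edgeR gave Tspo a log2 fold change of -0.32 ± 0.0638 (SE), with an unadjusted p of 0.00139 and an adjusted p of 0.400. CNTR 2 was far above all others for Tspo, and DESeq2 with the same surrogate variables gave an adjusted p of 0.0414. Without CNTR 1 the log2 fold change of Tspo by edgeR was -0.64 (adjusted p = 0.0353), without CNTR 2 it was -0.21, and without surrogate variables it was -0.52. Fdx1, the ferredoxin that passes electrons to the side-chain cleavage enzyme, measured 287, 402 and 362 CPM in CNTR and 284, 251, 256 and 262 CPM in PAMH F3. All 4 PAMH F3 libraries were below the CNTR libraries, CNTR 1 by a small margin, and the log2 fold change was -0.32 (adjusted p = 0.529).

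In sterol transfer and ester turnover, 7 of 10 genes had a positive log2 fold change with the surrogate variables and 5 of 10 without them. Plin2, which coats the lipid droplets that hold cholesterol esters, measured 119, 139.6 and 123 CPM in CNTR and 164, 148, 148 and 148 CPM in PAMH F3. Every PAMH F3 library was above every CNTR library, and the log2 fold change was 0.29 (adjusted p = 0.511). Gramd1b, which moves cholesterol from the plasma membrane to the endoplasmic reticulum, measured 341, 359 and 463 CPM in CNTR and 483, 404, 464 and 505 CPM in PAMH F3. PAMH F3 2 lay inside the CNTR range, and edgeR put the log2 fold change at 0.30 (adjusted p = 0.536). Its relatives Gramd1c and Gramd1a had groups that did not overlap, in opposite directions and with log2 fold changes of 0.12 (adjusted p = 0.804) and -0.13 (adjusted p = 0.674). Soat2, the second esterifying enzyme, was scarce, at 1.48, 0.810 and 0.959 CPM in CNTR and 0.765, 0.331, 0.391 and 0.345 CPM in PAMH F3, and its log2 fold change was -1.40 (adjusted p = 0.511).

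In the remaining lists, Nr1h2 (liver X receptor beta) had a log2 fold change of -0.24 (adjusted p = 0.531), Lrp8 (a lipoprotein receptor) of -0.37 (adjusted p = 0.511), and Elovl5 (a fatty acid elongase) of -0.29 (adjusted p = 0.560), the last with groups that did not overlap. The 4 genes of acetyl-CoA supply, the 6 of SREBP processing and sterol-regulated degradation, and the 8 of non-sterol branches and oxysterols held 0 genes with an unadjusted p under 0.05 by edgeR.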

How the data were processed

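Ovarian poly(A) RNA from 3 CNTR and 4 PAMH F3 mice was sequenced by the authors as stranded single reads, mapped to mm10 with STAR 2.5.3a and counted per gene on unique alignments with HTSeq-count 0.6.1p1 in union mode. The annotation release and strand setting are not given in the sources used here. The authors deposited raw counts per gene, without normalization; the HTSeq summary lines were left out of all tests. Symbols and positions came from GENCODE M21.

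Groups were compared with edgeR 4.0.16 (quasi-likelihood F test, robust fitting off, filterByExpr with a minimum count of 10, TMM factors over all gene rows) in R 4.3.3, with 2 surrogate variables from svaseq (sva 3.50.0, seed 1, at most 3), which left 3 residual degrees of freedom. The study's own model also held covariates from sva, whose number is not given in the sources used here. P values were adjusted over all 18779 genes by the Benjamini-Hochberg method at 0.05, and IHW was not used here. DESeq2 1.42.0, other covariates, filters and scalings, a replicate block, a GC and length correction and each library left out were the alternatives. The scripts were tested on simulated data. Correlations used log2 CPM with a prior count of 2 for genes and log2 of the summed CPM for marker lists. Those with a p value used exact permutations of 7 libraries (5040 orders), with group means not subtracted. The labels name no batch, and as the animals' litters are not given, p values measure the spread between these 7 animals only.

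All 32 members are named, in order of role. Of the other listed genes, those with an unadjusted p under 0.05 or groups that did not overlap are named. The members and lists were chosen with earlier results of these data known. Certain genes of the pathway are not reported here.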

Additional observations from a re-analysis of the deposited data

How the results depend on the processing

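No member passed an adjusted p of 0.05 in 25 of the 26 other settings, and Srebf1 did without CNTR 1. Npc2, Ebp, Sqle and Hmgcs1 were lower, and Soat1 higher, in all 26. The count of members with an unadjusted p under 0.05 was 3 without surrogate variables, in DESeq2 without them and with the GC and length correction, in place of 5. For the other listed genes, 1 passed the adjusted p in DESeq2 with surrogate variables (Tspo), and the unadjusted count was 5 without surrogate variables, 4 with the replicate block and 5 with the GC and length correction, in place of 8. Over all genes the adjusted count was 107 in DESeq2 with surrogate variables, 6 in DESeq2 without them and 8 with no filter, and the unadjusted count was 741 in edgeR and 766 in DESeq2 without surrogate variables, 436 with the replicate block and 802 with the GC and length correction, in place of 1435. The cause of these differences was not tested.

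Leaving out each library, with or without surrogate variables, gave 0 to 1 members past the adjusted and 1 to 13 past the unadjusted threshold, 0 to 1 and 4 to 14 of the other listed genes (the 1 being Tspo without CNTR 1), 0 to 39 and 449 to 3251 of all genes, a median log2 fold change over the members of -0.19 to -0.0203, and 2 to 7 members whose groups did not overlap. The adjusted count over all genes was 39 without CNTR 1 and 37 without PAMH F3 1.

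The sign of the log2 fold change turned for members with small differences: with the GC and length correction for Pmvk (0.0506), Idi1 (-0.0503), Sc5d (-0.0759), Dhcr7 (-0.0104) and Npc1 (0.00690), without surrogate variables for Idi1 (-0.00632), Ggps1 (0.0259), Sc5d (-0.0105), Dhcr7 (-0.0218), Insig2 (0.0155), Scap (-0.0359) and Npc1 (0.0694), in DESeq2 without surrogate variables for Idi1 (-0.00501), Ggps1 (0.0272), Sc5d (-0.00924), Dhcr7 (-0.0205), Insig2 (0.0167), Scap (-0.0345) and Npc1 (0.0706), with 1 surrogate variable for Ggps1 (0.0222), Sc5d (-0.0139), Dhcr7 (-0.0186), Insig2 (0.0121), Scap (-0.0423) and Npc1 (0.0510), with the replicate block for Ggps1 (0.0303), Sc5d (-0.0470), Dhcr7 (-0.0386), Insig2 (0.00468), Scap (-0.0666) and Npc1 (0.0152). Leaving out libraries gave ranges across 0 of Acat2 -0.22 to 0.0544, Mvk -0.38 to 0.00572, Idi1 -0.26 to 0.35, Fdps -0.10 to 0.19, Ggps1 -0.0616 to 0.0928, Lss -0.13 to 0.0676, Tm7sf2 -0.31 to 0.0360, Lbr -0.0930 to 0.0529, Nsdhl -0.18 to 0.0832, Sc5d -0.0775 to 0.0602, Dhcr7 -0.16 to 0.20, Insig2 -0.0559 to 0.0562, Srebf1 -0.55 to 0.0422, Scap -0.16 to 0.12, Scarb1 -0.34 to 0.0576, Npc1 -0.0426 to 0.17 and Stard4 -0.30 to 0.0716.

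Whether the replicate numbers pair the animals is not given in the labels. Deviations of same-numbered libraries had correlations of 0.0957, 0.0965 and -0.248, and those of unlike-numbered libraries ran from -0.235 to 0.277. These values cannot decide whether animals were paired. With the replicate block, without surrogate variables, 0 members passed the adjusted p. With 3 residual degrees of freedom and 3 against 4 libraries, differences of the size seen in most members could not be told from the spread between animals.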
